A study of Mus musculus with 31 samples.

Results

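Slc3a2, Slc7a5, Slc7a6, Slc7a1, Slc7a11, Slc1a5 and Slc43a1 encode plasma membrane carriers of leucine, cystine, glutamine and cationic amino acids. These 7 genes were taken by their symbols from 41255 gene symbols in a table of total mRNA and a table of polysomal RNA, and all 7 passed the filter of a mean of at least 10 normalized counts in both. The cells were Ba/F3, a mouse lymphoid line that depends on IL-3. All clones carried an shRNA against endogenous Rpl10 and expressed human RPL10, a protein of the large ribosomal subunit, from a retroviral vector. The vector held either the WT cDNA or the R98S cDNA, an arginine-to-serine change found in T-cell acute lymphoblastic leukemia. Each clone had grown from a single cell, and the 6 clones were R98S clones 11, 13 and 35 and WT clones 28, 29 and 36. Total mRNA was sequenced in 9 R98S and 8 WT libraries, and polysomal RNA in 8 R98S and 6 WT libraries. Polysomal RNA came from gradient fractions with more than a single ribosome per transcript. The libraries of a clone carried a number from 1 to 3, referred to as the replicate number, whose meaning is not stated in the sources used here. The comparisons asked how R98S and WT cells differ in the total mRNA, the polysomal RNA and the ratio of both for these genes. The total mRNA of WT clone 36 in number 1 was not analysed here. The study had left this library out because it fell among those of R98S by principal component analysis, so that the WT group of total mRNA was in part selected by its profile.

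Amino acids cross the plasma membrane on carriers that differ in what they carry and in what they need as a partner. Slc3a2, also named CD98 or 4F2hc, is a heavy chain without transport activity of its own that brings light chains to the membrane. Slc7a5 (LAT1) is such a light chain and takes up leucine and other large neutral amino acids in exchange for glutamine. Slc7a6 (y+LAT2) is a light chain that exchanges cationic for neutral amino acids, and Slc7a11 (xCT) is a light chain that takes up cystine in exchange for glutamate. Slc7a1 (CAT1) carries arginine and lysine, Slc1a5 (ASCT2) exchanges glutamine and other small neutral amino acids with sodium, and Slc43a1 (LAT3) lets leucine pass by facilitated diffusion, all without the heavy chain. Leucine and arginine are sensed upstream of the mTORC1 kinase, and cystine is the source of cysteine for glutathione. In lymphocytes CD98 and LAT1 are known to rise with growth and activation, and several of the 7 genes are known targets of Atf4, a transcription factor of the amino acid response.

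Positions are given on mm10 with the GENCODE M21 annotation. Slc3a2 lies at chr19:8706882-8723369 on the minus strand, Slc7a5 at chr8:121881150-121907694 on the minus strand and Slc7a6 at chr8:106168857-106198706 on the plus strand. Slc7a1 lies at chr5:148327410-148399904 and Slc7a11 at chr3:49892526-50443614, both on the minus strand. Slc1a5 lies at chr7:16781340-16798274 and Slc43a1 at chr2:84838850-84863594, both on the plus strand. All are protein-coding, and none shared exon bases with another annotated gene. Between 0 and 3.51% of the 50-base windows of a member's transcripts also occurred in transcripts of other genes, with the highest share in Slc3a2.

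RefSeq promoter windows on GRCm38.p6, which run from 250 bases before to 50 bases after a gene start, were available for 5 of the 7 genes. Slc7a5 and Slc1a5 had no window and were not searched. The available windows were searched on both strands for TGATGNAA, the core of sites bound by Atf4 with C/EBP factors. The Slc7a11 window held 2 matches, in opposite orientation, and the 67 bases around them are shown because this gene had the largest estimated genotype difference of the 7 genes in total mRNA. The stretch is chr3:50443633-50443699, printed on the minus strand with both matches in capitals.
Slc7a11: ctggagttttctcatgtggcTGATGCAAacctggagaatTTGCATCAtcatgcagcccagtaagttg
The matches begin 66 and 47 bases before the gene start. Of 32851 promoter windows, 1304 (3.97%) held the letters and 23 held them 2 or more times. The windows of Slc3a2, Slc7a6, Slc7a1 and Slc43a1 did not hold them. CACGTG, the E-box letters bound by Myc with Max, occurred in the window of Slc43a1 and in 7.15% of all windows. TGACNNNGC, the core of the antioxidant response element bound by Nfe2l2, occurred in windows of Slc7a6, Slc7a1 and Slc43a1 and in 12.4% of all windows.

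Library depth was 9338671 to 22059792 reads for total mRNA and 8831180 to 20754046 for polysomal RNA. Reads per member and library ranged from 1736 to 13782 for Slc7a5 and from 32 to 420 for Slc7a11, so the last was the least precisely counted. Of 15 markers of lymphoid and IL-3 dependent cells, 6 were detected with a mean of at least 10, among them Ptprc, Il3ra, Cd79a and Cd79b, while 8 had a mean under 1, among them Pax5 and Il7r. Their summed level was 110200 to 222400 normalized counts in R98S and 56840 to 102200 in WT libraries, and Csf2rb with its near-identical copy Csf2rb2 was included in it. Markers of T cells, myeloid and mast cells, and erythroid cells were detected for 2 of 5, 4 of 9 and 3 of 3 genes. Their summed levels were 36.6 to 102, 14250 to 25350 and 1823 to 4572 in R98S, against 13.4 to 211, 18530 to 29010 and 2319 to 7082 in WT. Rpl10, the targeted gene, had 901 to 2984 normalized counts in R98S and 620.3 to 5715 in WT total mRNA. All clones carried the shRNA and reads from the human RPL10 cDNA may map to it, so this gene does not check the labels.

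Per kilobase of exon, Slc7a5 and Slc3a2 were the most abundant transporter transcripts in total mRNA. Slc7a5 had 2466 ± 945 normalized counts per kilobase in R98S against 2314 ± 989 in WT (SD, n = 9 and 8), and Slc3a2 had 1792 ± 584 and 1980 ± 587. Their ranges overlapped. The heavy chain was thus measured at a level near that of its most abundant light chain. Slc7a6 followed with 371 ± 49.7 in R98S and 365 ± 60.6 in WT, Slc1a5 with 328 ± 74.5 and 370 ± 127, and Slc7a1 with 236 ± 103 and 283 ± 92.3. These 3 overlapped with each other, while the highest Slc7a6 library (438) stayed below the lowest Slc3a2 library (1183). Slc43a1 had 151 ± 29.8 in R98S and 169 ± 35.0 in WT, and overlapped with Slc7a1. Slc7a11 was lowest with 11.0 ± 9.41 and 17.4 ± 10.1, and its highest library (31.3) lay below the lowest Slc43a1 library (120). The length used was that of all annotated exons of a gene. It was 11.53 kb for Slc7a1 and 13.92 kb for Slc7a11, against 3.529 to 5.716 kb for the others. The place of Slc7a1 depends on this length. Without it, Slc7a1 had mean normalized counts of 2722 in R98S and 3265 in WT, above Slc7a6 with 1696 and 1670.

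In total mRNA none of the 7 transporters differed between R98S and WT at a limma adjusted p under 0.1, while 30.3% of 11133 genes did. The count was 0 of 7 also at an unadjusted p under 0.05 and with edgeR or DESeq2 on the recovered reads. The heavy chain Slc3a2 lay between 4559 and 10244 normalized counts in R98S with a median of 4985, and between 4174 and 9801 in WT with a median of 6747. Its leucine-carrying partner Slc7a5 lay between 5441 and 14807 in R98S (median 7395) and between 3830 and 14185 in WT (median 8815). Both genotypes spanned nearly the same range for these genes. The log2 fold change of R98S over WT was -0.15 for Slc3a2 (SE 0.20, 95% interval -0.56 to 0.26, limma adjusted p = 0.623) and 0.13 for Slc7a5 (SE 0.27, interval -0.43 to 0.68, adjusted p = 0.774). The light chain Slc7a6 was the steadiest member, with 1383 to 1990 in R98S and 1321 to 2001 in WT. Its log2 fold change was 0.03 (SE 0.11, interval -0.20 to 0.25).

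Slc7a11, the cystine carrier, had the largest point estimate in total mRNA. It lay between 44.1 and 421 normalized counts in R98S with a median of 94.1, and between 70.3 and 436 in WT with a median of 216. Only 2 of its 9 R98S values were under the lowest WT value. The log2 fold change was -0.82 (SE 0.45, interval -1.76 to 0.12, limma adjusted p = 0.201). With the replicate number as a block it was -0.90 and reached an adjusted p of 0.0970, where 19.9% of all genes were called lower. It also reached the threshold without R98S clone 13 of number 1 (adjusted p = 0.0870), without R98S clone 13 (0.0901), without number 1 (-1.28, 0.0730) and with clone means (0.0881), but not with clone as a random effect beside the block (0.147), while without all libraries of number 3 the log2 fold change was 0.03.

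The arginine carrier Slc7a1 lay between 1510 and 4987 in R98S (median 2342) and between 1834 and 4795 in WT (median 3563), with a log2 fold change of -0.29 (SE 0.24, interval -0.79 to 0.20, limma adjusted p = 0.404). The glutamine carrier Slc1a5 lay between 1003 and 1837 in R98S (median 1326) and between 932 and 2465 in WT (median 1669). Its log2 fold change was -0.13 (SE 0.19, interval -0.52 to 0.26). Slc43a1 lay between 685 and 1184 in R98S and between 701 and 1286 in WT, with a log2 fold change of -0.16 (SE 0.13, interval -0.44 to 0.12). The R98S and WT libraries overlapped for all 7 genes, where 3.53% of all genes had no overlap. The median log2 fold change of the 7 genes was -0.15, beside 0.0035 over all genes.

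**Figure D1:**
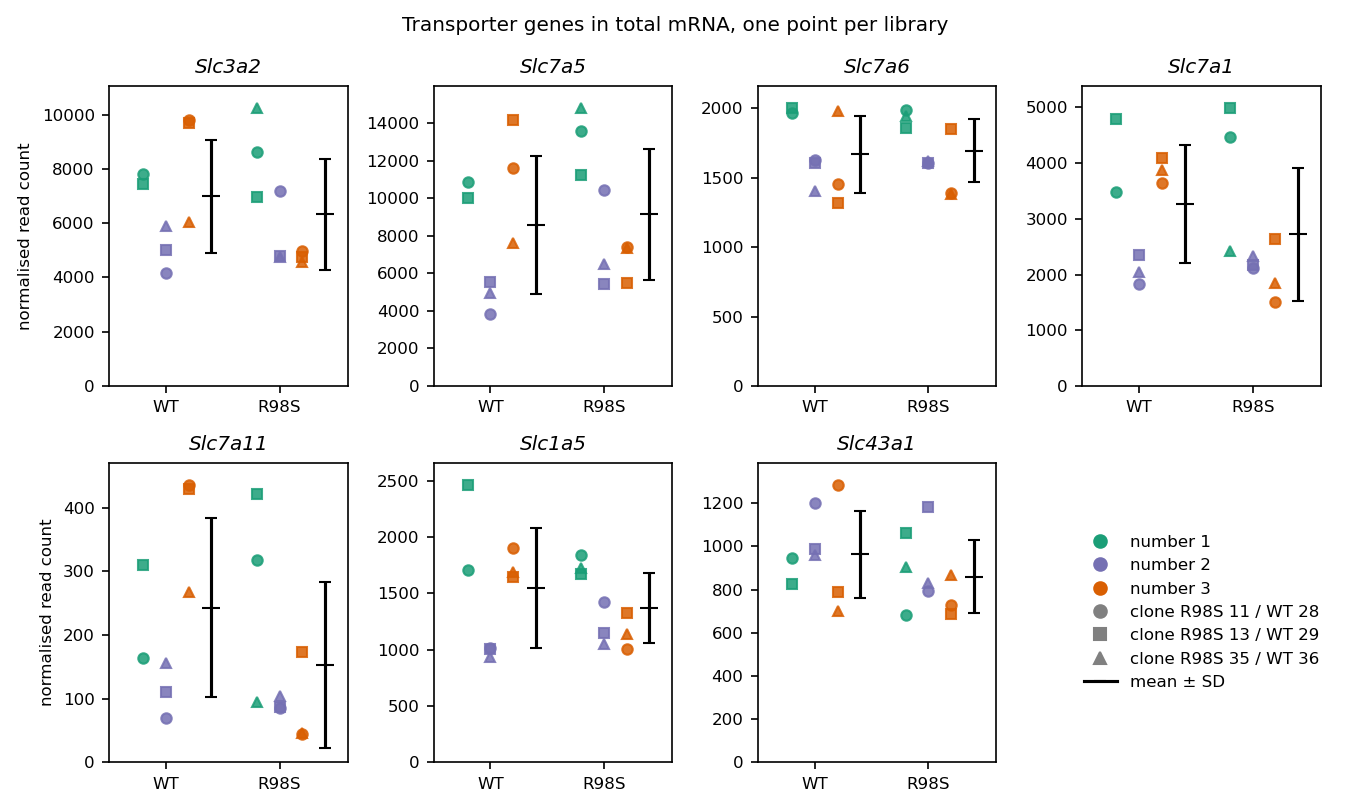
Normalized counts of the 7 transporters in each total mRNA library, on a linear axis, with a panel per gene, points by clone and replicate number, and the mean ± SD of each genotype. The genotypes overlap in every panel, and Slc7a11 spreads from 44.1 to 436.

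In polysomal RNA the glutamine carrier Slc1a5 was lower in R98S, and it was the only 1 of the 7 genes called, where 13.5% of 10707 genes were called and 5.87% were called lower. Slc1a5 lay between 523 and 1085 normalized counts in R98S with a median of 705, and between 764 and 1537 in WT with a median of 1046. Of the 8 R98S values 6 were under the lowest WT value, and R98S clone 13 of number 3 had the highest R98S value. The log2 fold change was -0.58 (SE 0.19, 95% interval -0.98 to -0.18, limma adjusted p = 0.0695). This call was near the threshold. It was lost without any of 8 libraries, with adjusted p of 0.127 and 0.124 without R98S clone 11 of numbers 1 and 3, 0.106 and 0.105 without R98S clone 13 of numbers 1 and 2, and 0.117 without R98S clone 35 of number 3. Among WT libraries it was lost without clone 28 of number 2 (0.123), clone 29 of number 2 (0.128) and clone 36 of number 3 (0.117). It was also lost without R98S clone 11 (0.232) or 35 (0.206), without WT clone 28 (0.178), 29 (0.106) or 36 (0.117), without number 1 (0.291) or 2 (0.340), and with clone means (0.141). With samples left out the log2 fold change lay between -0.78 and -0.41. With the replicate number as a block it was -0.58 (limma adjusted p = 0.0216), where 15.7% of all genes were called lower.

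Slc1a5 was lower in each R98S clone than in each WT clone by the mean of the log2 polysomal values. These means were 9.15, 9.67 and 9.48 for R98S clones 11, 13 and 35, and 10.21, 9.94 and 10.04 for WT clones 28, 29 and 36. The difference was -0.63 with an exact two-sided permutation p of 0.1, the smallest that 3 against 3 clones can give. Slc7a11 also had no overlap of its polysomal clone means, with a difference of -0.66 and the same exact permutation p of 0.1. Clone means without overlap and lower in R98S were found for 13.4% of all genes in polysomal RNA. The clone means take the replicate numbers in unequal parts, and WT clone 36 had only a polysomal library of number 3.

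Polysomal Slc7a11 lay between 40.4 and 141 normalized counts in R98S with a median of 57.0, and between 57.9 and 139 in WT with a median of 105. In 4 R98S libraries it was below all WT values, and clone 13 of number 3 lay above them. The log2 fold change was -0.69 (SE 0.28, interval -1.29 to -0.08, limma adjusted p = 0.162). Without R98S clone 13 of number 3 it was -0.86 (adjusted p = 0.0283), and without WT clone 28 of number 2 it was -0.84 (adjusted p = 0.0748). It also passed without WT clone 28 (-0.95, adjusted p = 0.0745) and without number 3 (-1.02, adjusted p = 0.0586). Slc7a1 lay between 338 and 1289 in R98S and between 434 and 2157 in WT, with a log2 fold change of -0.40 (SE 0.44, interval -1.33 to 0.53, adjusted p = 0.689). Without all libraries of number 3 it was -0.73 (adjusted p = 0.0078), and without WT clone 29 it was 0.08. With the replicate number as a block both reached the threshold, Slc7a1 with -0.60 (adjusted p = 0.0080) and Slc7a11 with -0.65 (adjusted p = 0.0922), and 3 of the 7 genes were then lower, where 15.7% of all genes were. With clone as a random effect beside the block, Slc7a1 (adjusted p = 0.0361) and Slc1a5 (0.0521) kept the call and Slc7a11 lost it (0.204).

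No other transporter was called in polysomal RNA with or without the block. Slc3a2 lay between 3895 and 5417 normalized counts in R98S and between 3745 and 5833 in WT, with a log2 fold change of -0.12 (limma adjusted p = 0.702). Slc7a5 ranged from 2639 to 7650 and from 3118 to 6695, with a log2 fold change of 0.04 (adjusted p = 0.963). Slc7a6 had a log2 fold change of -0.19 (adjusted p = 0.457) and Slc43a1 of -0.11 (adjusted p = 0.835). The R98S and WT polysomal libraries overlapped for all 7 genes, where 4.96% of genes had no overlap. The median log2 fold change of the 7 genes was -0.19, beside -0.02 over all genes.

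**Figure D2:**
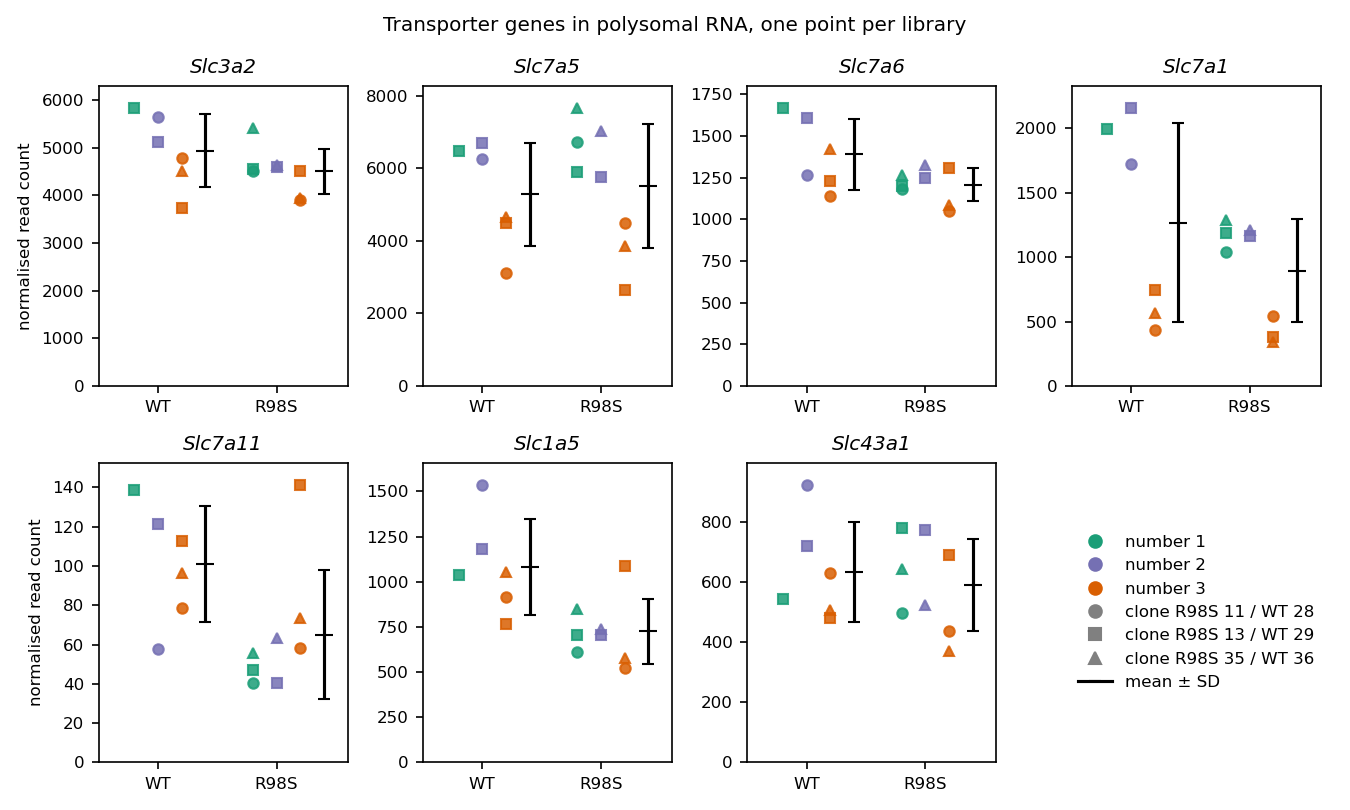
Normalized counts of the 7 transporters in each polysomal library, on a linear axis, with a panel per gene, points by clone and replicate number, and the mean ± SD of each genotype. For Slc1a5 the R98S libraries sit at 523 to 1085 and the WT libraries at 764 to 1537.

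The ratio of polysomal to total mRNA of a clone and number, referred to as translational efficiency (TE), had a mean below that of the median gene for each of the 7 transporters. The 2 tables had been normalized separately, so a ratio compares a gene with the average gene of its tables. Over 14 pairs of libraries the mean log2 TE was -1.67 for Slc7a1, which stood at percentile 6.33 of 10627 genes, and -1.07 for Slc7a11 at percentile 17.4. Slc1a5 (-0.75), Slc7a5 (-0.67), Slc43a1 (-0.59), Slc3a2 (-0.42) and Slc7a6 (-0.39) followed, and the median of all genes was -0.29. The arginine carrier was lowest in this pooled mean, to which number 3 contributed 6 of the 14 pairs. It was not lowest in each number, since in WT of number 2 its mean (-0.11) lay above those of Slc7a6 (-0.18) and Slc43a1 (-0.42), and in R98S of number 1 Slc7a11 (-2.28) lay below it (-1.69).

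TE did not differ between the genotypes at the threshold for any of the 7 genes, where 0.0376% of 10627 genes were called, and with the replicate number as a block the count was again 0 of 7, beside 0.470% of all genes. At an unadjusted p under 0.05 and with edgeR on the recovered reads the count was also 0 of 7. The log2 TE of Slc7a6 lay between -0.75 and -0.29 in R98S and between -0.48 and 0.0029 in WT, a difference of -0.23 (SE 0.14, 95% interval -0.54 to 0.08, limma adjusted p = 0.864). Slc1a5 lay between -1.58 and -0.29 in R98S and between -1.25 and 0.60 in WT, a difference of -0.37 (SE 0.30, interval -0.998 to 0.27). The intervals were wide for the others, up to -1.06 to 1.46 for Slc7a11 with a difference of 0.20. Differences were -0.07 for Slc7a1, 0.05 for Slc3a2, -0.02 for Slc7a5 and 0.03 for Slc43a1. The genotypes overlapped for all 7 genes in TE, where 0.169% of genes had no overlap. By clone means Slc1a5 TE was lower in every R98S clone than in every WT clone, by -0.41 with the smallest possible exact permutation p of 0.1, where 7.73% of all genes were lower without overlap. These means take the replicate numbers in unequal parts, and with the number as a block the difference was -0.22 (adjusted p = 0.681), while within number 3 it was 0.21.

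**Figure D3:**
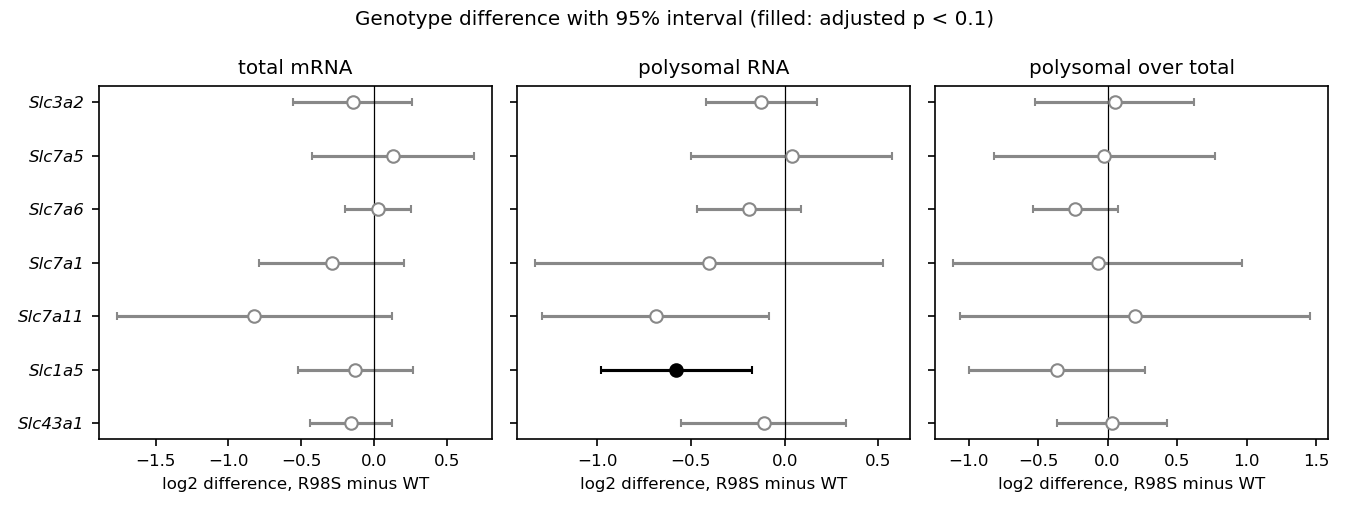
Log2 fold change of R98S over WT for the 7 transporters in total mRNA, polysomal RNA and TE, with 95% intervals and filled points at a limma adjusted p under 0.1. The polysomal Slc1a5 value of -0.58 is the single filled point.

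Each R98S clone was also set against the mean of the WT clones, with clone and replicate number in the fit, and these comparisons share the WT libraries. In polysomal RNA Slc1a5 was lower in clone 11 (log2 fold change -0.92, limma adjusted p = 0.0316) and in clone 35 (-0.65, adjusted p = 0.0590), while in clone 13 it was -0.45 (adjusted p = 0.165). Slc7a1 was lower in clone 13 (-0.58, adjusted p = 0.0353) and in clone 35 (-0.58, adjusted p = 0.0374), while in clone 11 it was -0.37 (adjusted p = 0.252). The shares of all genes called in polysomal RNA were 20.9%, 29.5% and 26.9% for clones 11, 13 and 35. In total mRNA Slc7a11 was lower in clone 35 (-1.50, SE 0.55, adjusted p = 0.0860), and no other member was called in any clone, where 34.3%, 27.2% and 20.3% of genes were. In TE no member was called, and the estimate for Slc7a11 in clone 35 was 1.30, where 0.122% of genes were called. Whether the clones differ from each other was tested separately. Among the R98S clones 0 of 7 genes differed in total mRNA (4.08% of all genes) or in polysomal RNA (2.90%). Among the WT clones 0 of 7 differed in total mRNA (0.153%) or in polysomal RNA (2.04%). An unadjusted p under 0.05 was found for Slc43a1 among the WT clones in total mRNA (0.0435) and for Slc43a1 (0.0117) and Slc7a5 (0.0444) among the R98S clones in polysomal RNA.

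More of the transporters were called for the replicate number than for the genotype. In total mRNA 5 of the 7 genes differed between numbers in a limma F-test, where 43.5% of all genes did. These were Slc1a5 (adjusted p = 0.00432), Slc7a5 (0.0124), Slc7a1 (0.0155), Slc7a6 (0.0351) and Slc3a2 (0.0440). In polysomal RNA 4 of 7 differed, where 64.9% of all genes did, with Slc7a1 (adjusted p = 5.76e-07) ahead of Slc7a5 (4.12e-04), Slc3a2 (0.0806) and Slc43a1 (0.0975). In TE 5 of 7 differed, where 71.0% did. In polysomal RNA and TE the share of members was near that of all genes.

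Slc7a6 (limma adjusted p = 0.363), Slc1a5 (0.375) and Slc7a11 (0.394) were not called for the number in polysomal RNA. Slc7a1 had the smallest adjusted p of the 7 genes there, and its values by number follow. In R98S it had 1042, 1187 and 1289 normalized counts in number 1, 1167 and 1215 in number 2, and 547, 383 and 338 in number 3. In WT it had 1992 in number 1, 1721 and 2157 in number 2, and 434, 746 and 566 in number 3. Number 3 was lower than the other numbers in both genotypes, without overlap. Total mRNA of Slc7a1 in WT had means of 4140, 2080 and 3868 in numbers 1, 2 and 3. The log2 TE of Slc7a1 in WT was -1.27 in number 1, -0.11 in number 2 and -2.76 in number 3, and the R98S means were -1.69, -0.92 and -2.23.

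In libraries of number 3 the total mRNA of 5 of the 7 genes was lower in R98S, where 10.2% of all genes were called lower. This fit, which takes the spread from all 3 numbers, was chosen after seeing the data. Slc7a11 had 44.1, 174 and 46.9 normalized counts in R98S clones 11, 13 and 35 of number 3, and 436, 429 and 268 in WT clones 28, 29 and 36. All R98S values lay below all WT values, and the log2 fold change was -2.36 (limma, SE 0.54, adjusted p = 0.0113). Slc7a1 had 1510, 2633 and 1845 in R98S and 3641, 4086 and 3878 in WT, a log2 fold change of -0.99 (SE 0.24, adjusted p = 0.0140). Slc3a2 had 4985, 4774 and 4559 in R98S and 9801, 9711 and 6039 in WT, a log2 fold change of -0.80 (SE 0.21, adjusted p = 0.0207). The cystine, arginine and heavy chain transcripts thus stood apart between the genotypes in this number. Slc1a5 had 1003, 1326 and 1144 in R98S and 1900, 1646 and 1692 in WT, a log2 fold change of -0.60 (SE 0.15, adjusted p = 0.0195). Slc7a5 had 7395, 5465 and 7362 in R98S and 11628, 14185 and 7602 in WT, a log2 fold change of -0.69 (SE 0.25, adjusted p = 0.0813). The call of Slc7a5 was lost when number 3 was fitted alone (adjusted p = 0.163), and the other 4 were kept. These 5 genes had no overlap within number 3, where 14.2% of all genes were lower without overlap. Slc7a6 (-0.03) and Slc43a1 (-0.24) were not called.

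In the other numbers no transporter passed the test in total mRNA. In number 1, with 3 R98S and 2 WT libraries, 0 of 7 genes were called, where 7.66% of all genes were, and in number 2, with 3 libraries of each, 0 of 7 were called, where 6.08% were. Slc7a11 had 318, 421 and 94.1 normalized counts in R98S and 163 and 309 in WT in number 1, and 85.7, 87.6 and 105 in R98S and 70.3, 110 and 157 in WT in number 2. In number 2 the log2 fold change was 0.61 for Slc7a5 (limma adjusted p = 0.178) and 0.28 for Slc1a5 (adjusted p = 0.298). Slc1a5 had 1051 to 1421 normalized counts in R98S and 932 to 1015 in WT in number 2. A genotype by number interaction, also added after seeing the data, had an unadjusted p under 0.05 for 5 of the 7 genes in total mRNA, where 4.31% of all genes had. These p were 0.00329 for Slc1a5, 0.00509 for Slc7a5, 0.00786 for Slc3a2, 0.0131 for Slc7a1 and 0.0142 for Slc7a11, but all 5 had a limma adjusted p of 0.934 and no gene was called. The difference between the numbers therefore does not pass the correction over all genes.

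In polysomal RNA of number 3, 0 of 7 genes were called, where 16.8% of all genes were, and Slc7a11 had 58.4, 141 and 73.3 normalized counts in R98S and 78.7, 113 and 96.5 in WT, a log2 fold change of -0.16 (limma, SE 0.36, adjusted p = 0.819). The log2 TE of Slc7a11 was accordingly 0.40, -0.29 and 0.63 in R98S and -2.46, -1.92 and -1.46 in WT, a difference of 2.19 (SE 0.50, adjusted p = 0.0490), where 2.62% of all genes were called higher. In numbers 1 and 2 the difference had the other sign, with -1.12 (adjusted p = 0.658) and -0.84 (adjusted p = 0.593). WT had a single pair of libraries in number 1, assumed in the fit to vary like the others. Slc3a2 TE differed by 0.73 in number 3 (adjusted p = 0.109) and Slc1a5 TE by -1.02 in number 2 (unadjusted p = 0.00209, adjusted 0.188), neither past the threshold. In polysomal RNA the interaction had an unadjusted p under 0.05 for 0 of 7 genes (5.56% of all genes) and in TE for 3 of 7 (14.7%), namely Slc7a11 (0.00120), Slc3a2 (0.00859) and Slc1a5 (0.0107). The smallest adjusted p of these 3 was 0.119.

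**Figure D4:**
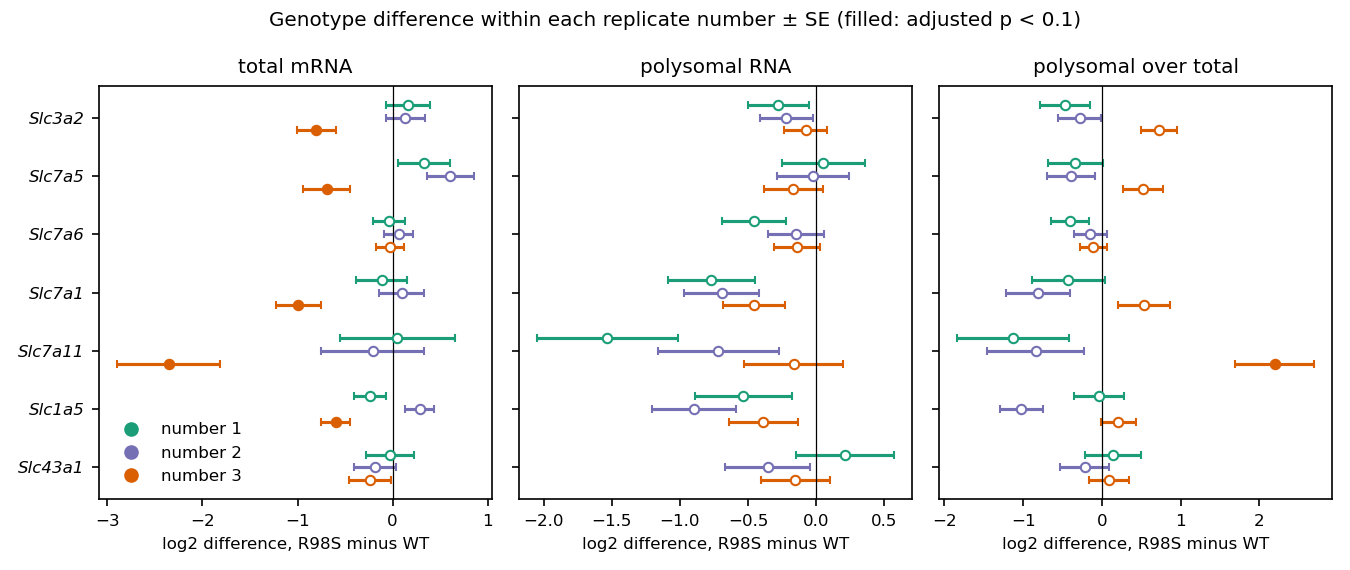
Log2 fold change of R98S over WT within replicate numbers 1, 2 and 3, with ± SE, for the 7 transporters in total mRNA, polysomal RNA and TE, and filled points at a limma adjusted p under 0.1. In total mRNA of number 3, 5 genes are filled and lie between -2.36 and -0.60.

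Across the 14 pairs of libraries, total and polysomal levels of a gene were compared, a test added after seeing the data, with 100000 permutations and adjustment over the 7 genes. The pairs come from 6 clones and share 3 numbers, and are not fully independent. Pearson's r was 0.049 for Slc3a2, 0.091 for Slc7a5, 0.131 for Slc7a1, 0.035 for Slc1a5 and 0.243 for Slc7a11, with permutation p adjusted to 0.905 for each. Spearman's rho for these 5 genes was 0.086, 0.143, 0.108, 0.055 and 0.226, each with an adjusted permutation p of 0.855. Slc43a1 (r = 0.642, permutation p = 0.0139, adjusted 0.0970, and rho = 0.609, p = 0.0232, adjusted 0.162) and Slc7a6 (r = 0.506, p = 0.0653, adjusted 0.229, and rho = 0.512, p = 0.0645, adjusted 0.226) had higher values. Without the 2 pairs farthest from the median in total mRNA, r was 0.592 for Slc43a1 and 0.427 for Slc7a6, but -0.179 for Slc3a2, 0.067 for Slc7a5, -0.107 for Slc7a1, 0.2003 for Slc7a11 and -0.296 for Slc1a5. After removal of the mean of each number r was 0.530 for Slc43a1 and 0.535 for Slc7a6. The same removal gave 0.070 for Slc3a2, 0.388 for Slc7a5, 0.281 for Slc7a1, 0.310 for Slc7a11 and 0.470 for Slc1a5. The median r over 10627 genes was 0.344, and Slc3a2, Slc7a5, Slc7a1, Slc7a11 and Slc1a5 lay under it.

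**Figure D5:**
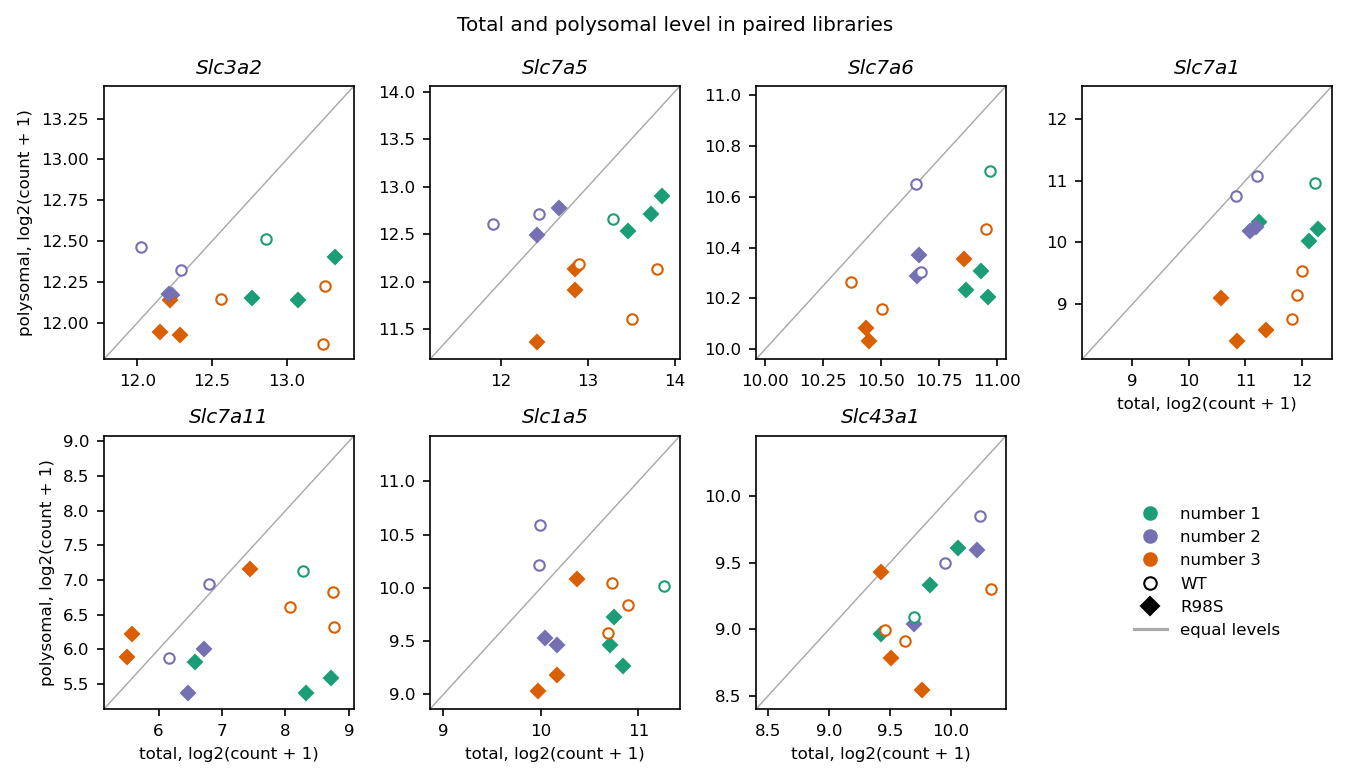
Polysomal against total mRNA level of each transporter in the 14 pairs of libraries, as log2(normalized count + 1), with points by genotype and replicate number. Over all points r is 0.035 for Slc1a5 and 0.642 for Slc43a1, and after removal of the mean of each number it is 0.470 and 0.530.

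To describe which transcripts had a pattern like that of each transporter, Pearson correlations over the 17 total mRNA libraries were ranked among 9255 genes of mean 100 or more. The libraries share numbers, and the second value given is r after removal of the mean of each number. Slc3a2 and Slc7a5, the heavy chain and its light chain, were each other's nearest gene (r = 0.904 and 0.851). Slc3a2 was followed by Parvg (0.873 and 0.843) and Nars (0.856 and 0.799), the asparaginyl-tRNA synthetase. Slc7a5 was followed by Aars (0.846 and 0.669), the alanyl-tRNA synthetase, and Eif1 (0.845 and 0.684), an initiation factor. Aars shares 14.3% of its exon bases with Exosc6 on the same strand.

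Slc7a1 and Slc7a11 were likewise close (r = 0.927 and 0.942). Slc7a1 was followed by Iars (0.909 and 0.891), the isoleucyl-tRNA synthetase, and Slc38a2 (0.887 and 0.832), a carrier of neutral amino acids. Slc7a11 was nearest to Trib3 (0.940 and 0.937) and Sesn2 (0.940 and 0.927), which are known as stress-induced genes, and to Iars (0.939 and 0.925). Slc1a5 was nearest to Atf4 (r = 0.948 and 0.927), followed by Xpot (0.924 and 0.854), the tRNA exporter, and Ppp1r8 (0.920 and 0.805). The other members had different neighbours. Slc7a6 was nearest to Sco1 (0.927 and 0.892), Naa25 (0.920 and 0.851) and Mak16 (0.919 and 0.853), and Slc43a1 to Gltscr2 (0.871 and 0.851), Hid1 (0.823 and 0.8285) and Dclre1a (0.817 and 0.835). In the 14 polysomal libraries r was 0.49 for Slc3a2 with Slc7a5 and -0.12 for Slc7a1 with Slc7a11. Both turned sign after removal of the mean of each number, to -0.26 and 0.61.

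Atf4, the nearest transcript to Slc1a5, had by number 9905, 5097 and 4304 normalized counts in R98S and 11370, 3875 and 7347 in WT (means of numbers 1, 2 and 3). It differed between numbers (limma adjusted p = 0.00132) and not at the threshold between genotypes (log2 fold change -0.11, adjusted p = 0.823). Of the 12 listed regulators of these transporters 11 were tested. In R98S total mRNA 2 were higher and 2 lower, where 30.3% of all genes were called. None was called in polysomal RNA or TE, where 13.5% and 0.0376% of all genes were. With the replicate number as a block 2 were higher and 3 lower in total mRNA, where 38.4% of all genes were called, and 1 higher (Max) and 2 lower (Myc and Keap1) in polysomal RNA, where 30.9% were. Max, the partner of Myc, was higher (0.79, adjusted p = 8.59e-04), as was Trp53 (0.42, adjusted p = 0.0229). Cebpb (-0.76, adjusted p = 0.0270) and Cebpg (-0.74, adjusted p = 0.0541), both partners of Atf4, were lower. The call of Cebpg was lost without WT clone 28 (0.104) or clone 29 (0.1003) of number 3, and without WT clone 36 (0.126) or number 2 (0.112). Without all libraries of number 3, or without R98S clone 11, the calls of Cebpg, Cebpb and Trp53 were lost, and 20.7% of the exon bases of Cebpb are shared with another gene. Myc (-0.43, adjusted p = 0.123, and 0.0111 with the block), Ddit3 (-0.66, adjusted p = 0.139), Eif2ak4 (-0.17), Nfe2l2 (-0.06), Keap1 (-0.05) and Bach1 (-0.05) were not called in the fit without the block. The median of the tested regulators was -0.11.

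The other listed plasma membrane amino acid transporters mostly lay under the filter, and 9 of 36 passed the filter in total mRNA. Of these 1 was higher and 2 were lower in R98S, and in polysomal RNA 1 of 8 was higher, beside 30.3% and 13.5% of all genes called in either direction. With the block 1 was higher and 3 were lower in polysomal RNA (Slc1a4, Slc6a6 and Slc38a1), where 30.9% of all genes were called and 15.7% called lower. Slc38a6, a member of the neutral amino acid transporter family of Slc38a2, had 16040 ± 4055 normalized counts in R98S against 4471 ± 1223 in WT (SD, n = 9 and 8), a log2 fold change of 1.85 (limma, SE 0.18, adjusted p = 8.66e-07). It was also higher in polysomal RNA (2.27, adjusted p = 0.00128). Slc1a4, the relative of Slc1a5 that carries alanine, serine and cysteine, was lower with 340 ± 169 against 578 ± 167 (-0.86, adjusted p = 0.0218). This call was lost without number 3 (-0.40, adjusted p = 0.418), R98S clone 35 (0.118) or WT clone 29 (0.135). Slc43a2, the relative of Slc43a1, was lower by the test (-0.40, adjusted p = 0.0714), a call kept in 10 of 26 fits that each left out a library, clone or number. Slc38a2 (-0.29, adjusted p = 0.291) and Slc7a15 (-0.58, adjusted p = 0.258) were not called.

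Inside the cell, 1 of 8 lysosomal carriers was higher and 1 lower in total mRNA, beside 30.3% of all genes called. Mfsd12, a lysosomal cysteine importer, was lower (-0.55, limma adjusted p = 0.00394), and Slc17a5 was higher (0.37, adjusted p = 0.0784), a call kept in 9 of 26 fits with samples left out. None of the 8 passed in polysomal RNA, where 13.5% of all genes were called. With the block 3 were lower there and 1, Slc38a7, in TE. The shares of all genes with the block were 15.7% called lower in polysomal RNA and 0.470% called in TE. Of 10 mitochondrial carriers 4 were higher and 1 lower in total mRNA, and 3 were higher in polysomal RNA, beside 30.3% and 13.5% of all genes called. All 3 polysomal calls were lost without WT clone 28 of number 3, with adjusted p of 0.144 for Slc25a22 and 0.1007 for Slc25a29 and Slc25a38. Of 23 fits that each left out a library, clone or number, these calls were kept in 13 for Slc25a22, 11 for Slc25a29 and 14 for Slc25a38. Slc25a38, the glycine carrier, was higher (0.58, adjusted p = 0.0130), as was the glutamate carrier Slc25a22 (0.87, adjusted p = 0.0283, lost without number 3 or R98S clone 11), while the oxoglutarate carrier Slc25a11 was lower (-0.53, adjusted p = 0.00182). Of 35 genes of amino acid sensing upstream of mTORC1, 7 were higher and 5 lower in total mRNA, and 4 higher and 2 lower in polysomal RNA, where 30.3% and 13.5% of all genes were called. With the block 4 were higher and 5 lower in polysomal RNA, where 30.9% of all genes were called. Without the block, the polysomal calls of Rragc, Depdc5 and Lamtor1 were kept in 6, 11 and 18 of 23 fits with samples left out. Lamtor4, a part of the Ragulator complex, was lower (-0.85, adjusted p = 4.14e-05), as was Depdc5, a part of GATOR1 (-0.69, adjusted p = 6.10e-04), while the GTPase Rragc was higher (0.57, adjusted p = 0.00702). The median of these 35 genes was 0.0081.

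Genes that use the transported amino acids were counted in the same way. For cystine and glutathione, 1 of 10 genes was lower in total mRNA and 2 were lower in polysomal RNA, beside 30.3% and 13.5% of all genes called. Gclm, the modifier subunit of glutamate-cysteine ligase, had 2644 ± 647 normalized counts in R98S against 5418 ± 647 in WT (SD, n = 9 and 8), a log2 fold change of -1.06 (limma adjusted p = 1.07e-05), and -0.96 in polysomal RNA (adjusted p = 0.0117). Gsr, glutathione reductase, was -0.18 in total mRNA (adjusted p = 0.157) and lower in polysomal RNA (-0.41, adjusted p = 0.0474, and 0.103 without WT clone 36 of number 3). This call was also lost in 7 of 9 fits that left out a clone or a number. With the replicate number as a block 1 gene of this list was higher and 3 were lower in total mRNA, and 4 were lower in polysomal RNA, beside 38.4% and 30.9% of all genes called. For glutamine and glutamate, 3 of 17 genes were higher and 3 lower in total mRNA, and 1 was higher and 3 lower in polysomal RNA, beside the same 30.3% and 13.5% of all genes. With the block 5 were higher and 5 lower in total mRNA (38.4% of all genes called), and 1 higher and 7 lower in polysomal RNA (30.9% called and 15.7% called lower). Glud1, glutamate dehydrogenase, was higher in total mRNA (0.52, adjusted p = 0.00332), and Gpt2, a mitochondrial alanine transaminase, was lower with 796 ± 296 against 1775 ± 756 (-1.11, adjusted p = 0.00634, and -0.63 with 0.170 without number 3) and in polysomal RNA (-1.20, adjusted p = 4.60e-04).

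For breakdown of leucine and the other branched-chain amino acids, 1 of 10 genes was lower in total mRNA (30.3% of all genes called). None passed in polysomal RNA (13.5% called), while with the block 1 was higher and 1 lower there, beside 30.9% of all genes called. The gene lower in total mRNA was Bcat2, the mitochondrial branched-chain transaminase (-0.29, limma adjusted p = 0.0665, a call kept in 12 of 26 fits with samples left out), which shares 15.9% of its exon bases with another gene. For arginine and polyamines only 4 of 11 genes in the tables passed the filter. Azin1 (0.55, adjusted p = 0.0750) and Asl (0.21, adjusted p = 0.0850) were higher, calls kept in 11 and 8 of 26 such fits, and Nos1 was lower (-3.79, adjusted p = 1.76e-04), while Odc1 was not called (-0.02). In polysomal RNA 1 of these 4 genes was lower, where 13.5% of all genes were called, and with the block 1 was higher and 2 were lower, where 30.9% were called. In TE no gene of these lists was called in the fit without the block, where 0.0376% of all genes were.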

How the data were processed

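Poly(A) RNA of total lysate and of pooled polysomal fractions was sequenced with a stranded kit. Per the study's methods the authors removed the leading base of reads with seqtk and rRNA and tRNA reads with Bowtie2, aligned to mm10 with TopHat 2.0.11, dropped reads of low mapping quality and counted reads on exons; annotation and use of strand are not given in the sources used here, so reads from overlapping genes may be mixed. The deposited values are a signal, read counts per gene that the authors scaled by DESeq2 size factors, separately in each table, referred to as normalized counts. Whole reads were recovered from the step between values for 100% of them (tolerance 0.01), and 0 columns were left unused.

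R98S was compared with WT by limma 3.58.1 in R 4.3.3 on log2(value + 1), with a variance trend, keeping genes of mean 10 or more (for TE in both tables). Fold changes are on this scale, which shrinks those of low genes. P-values are two-sided, adjusted over all genes by the Benjamini-Hochberg method and called under 0.1. The study used DESeq2 and, for TE, Babel; limma was used because the values are normalized. TE is the log2 difference of both libraries of a clone and number. Alternatives used edgeR 4.0.16 and DESeq2 1.42.0 on the recovered reads. The fits were tested on simulated counts of independent libraries, without effects of clone or replicate number. That test does not show how the p-values behave under such effects. No label says that libraries of a clone came from separate cultures, so p-values measure the spread between these libraries. Among pairs within a genotype, polysomal R98S clone 13 of numbers 1 and 2 were closest, with a chi-square per gene of 4.36. The next closest pair had 9.61, and total mRNA of clone 13 in these numbers gave 65.0. Whether these 2 polysomal libraries are independent samples was not tested, and both were counted, also in TE.

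Libraries with the same number deviated together from their genotype means over genes, with a correlation of 0.620, 0.549 and 0.481 (total mRNA), 0.695, 0.666 and 0.867 (polysomal RNA) and 0.671, 0.538 and 0.812 (TE) in numbers 1, 2 and 3. The numbers were therefore taken as a block within each comparison, by this correlation and not by a label. For TE, total and polysomal libraries were matched by the clone and number in their titles. The correlations were taken within each comparison and do not test that match. Positions and exon lengths came from GENCODE M21 on the same build and promoters from RefSeq (GRCm38.p6). The members and lists were chosen with earlier results of these data known. The 7 members are reported in full and the 11 tested regulators are each named. From other lists up to 5 genes with the smallest p in total mRNA are given, and for each member the 3 genes with the largest r. Motifs were searched after the data were seen.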

Additional observations from a re-analysis of the deposited data

Results flagged for a closer look

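Polysomal Slc7a11 in R98S clone 13 of number 3 had 141.37 normalized counts, far above the other 7 R98S libraries, of which the nearest had 73.3 (Dixon's ratio 0.674, n = 8). It was picked out by the gap of the highest library to its neighbour relative to the range of the group. Over 42 groups of libraries checked in this way 1 stood out, where chance gives about 1 in 20 groups, or 2.1.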

How the results depend on the processing

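The number of transporters called in total mRNA was 0 and became 1 with the replicate block or with clone means and 4 within number 3 alone, with a range of 0 to 1 when a library, clone or number was left out. In polysomal RNA it was 1 and became 3 with the replicate block, 2 with clone as a random effect, 2 with this and the block, and 0 with clone means, within number 2 alone and within number 3 alone, with a range of 0 to 3 when samples were left out. In TE it was 0 and became 1 within number 3 alone. Other pseudocounts, filters, scalings, a fit without the variance trend and edgeR left these counts as they were, as did DESeq2 for total mRNA and polysomal RNA and the matched libraries alone for total mRNA, the comparisons in which these were run. The block changed no call of a member other than those of Slc7a11 in total mRNA and of Slc7a1 and Slc7a11 in polysomal RNA. The adjusted p of polysomal Slc1a5 was 0.0141 to 0.340 with samples left out and 0.141 with clone means.

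Log2 fold changes that were not called turned sign in some settings. In total mRNA these were Slc3a2 within number 1 (0.16) and number 2 (0.13), Slc7a5 within number 3 (-0.69), Slc7a6 with the clone random effect and block (-0.0017), within number 1 (-0.037) and within number 3 (-0.030), Slc7a1 within number 2 (0.10), Slc7a11 within number 1 (0.051) and Slc1a5 within number 2 (0.28). In polysomal RNA these were Slc3a2 with quantile normalization (0.038), and Slc7a5 with the replicate block (-0.073), with the clone random effect and block (-0.069), within number 2 (-0.025) and within number 3 (-0.17). In TE these were Slc3a2 with clone means (-0.0016) and within number 2 (-0.28), and Slc7a5 with quantile normalization (0.14), the replicate block (0.043), the clone random effect and block (0.045) and within number 3 (0.52). They were also Slc7a1 with clone means (0.17) and within number 3 (0.53), Slc7a11 within number 2 (-0.84), Slc1a5 within number 3 (0.21) and Slc43a1 within number 2 (-0.22). The cause was not tested.

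With samples left out, total mRNA values spanned -0.33 to 0.21 for Slc3a2, -0.19 to 0.58 for Slc7a5, -0.018 to 0.067 for Slc7a6, -0.54 to 0.089 for Slc7a1, -1.28 to 0.028 for Slc7a11 and -0.39 to 0.13 for Slc1a5. Polysomal values spanned -0.11 to 0.22 for Slc7a5, -0.73 to 0.083 for Slc7a1 and -0.34 to 0.039 for Slc43a1. TE values spanned -0.55 to 0.32 for Slc3a2, -0.66 to 0.29 for Slc7a5, -0.89 to 0.43 for Slc7a1, -1.30 to 0.98 for Slc7a11, -0.87 to 0.013 for Slc1a5 and -0.10 to 0.16 for Slc43a1. Polysomal Slc1a5 kept its sign in all settings run. Where WT clone 36 or another clone had 1 library, the fit assumed that it varies like the others. The low depth of Slc7a11, down to 32 reads, limits its precision, and with 3 clones per genotype the smallest exact p of the clone test was 0.1.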
